A study of Homo sapiens with 20 samples.

Results

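The genes described here are 7 transcription factors that drive the epithelial-mesenchymal transition (EMT): SNAI1, SNAI2, TWIST1, TWIST2, ZEB1, ZEB2 and PRRX1. They were chosen by name, with earlier results of these data known, and all 7 were found by symbol among the 60271 genes of the deposited count tables. The study followed EMT in MDA-MB-468 cells, an established triple negative breast cancer line of epithelial type with a high level of the epidermal growth factor (EGF) receptor. Untreated cells (CTR, 0 h) were compared with cells kept in EGF at 50 ng/mL, the exposure lasting 12, 24, 48 or 72 h. Each of the 5 groups held 4 biological replicates, which gave 20 RNA-seq libraries. Per the sample labels, cells were serum-starved for 24 h before EGF, and the groups shared their seeding and their harvest, with EGF added at different times. The data describe 1 cell line, and the study states that, once delivered, it was not authenticated and not tested for mycoplasma.

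EMT is the programme by which sheet-forming epithelial cells loosen their junctions and take on a spindle-shaped, motile state, as in the embryo, in wound closure and in invading carcinoma. SNAI1 and SNAI2 are zinc finger repressors, and ZEB1 and ZEB2 are zinc finger and homeodomain repressors. All of them bind short E-box sequences in the promoters of epithelial genes such as CDH1, which encodes the adhesion protein E-cadherin. TWIST1 and TWIST2 are basic helix-loop-helix factors that act as dimers, and PRRX1 is a homeodomain factor of embryonic mesenchyme. The miR-200 family of microRNAs represses ZEB1 and ZEB2 through sites in their 3′ untranslated regions (UTR), and ZEB factors in turn repress the miR-200 genes.

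Of these 7 genes, 3 passed the filter on low counts and 4 were too low to measure. SNAI1 rose 4.08-fold at 12 h, fell by 24 h, rose again at 48 h and fell by 72 h. Its mean stayed above that of the CTR throughout. TWIST2 rose 1.65-fold at 12 h, and its later differences from the CTR did not pass the test. ZEB1 went from 3 counts over the 4 CTR libraries to between 22 and 48 counts at each time in EGF. It passed the filter only through later groups where it is high, and no library of the CTR or at 12 h reached the cutoff. Its rise is therefore given as a description. SNAI2 had no count in any of the 20 libraries, and TWIST1, ZEB2 and PRRX1 had at most 8 counts in any 1 library.

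The sequences that bear on these members are given first. ZEB1 and ZEB2 are the members with known miR-200 sites, so the mature miR-200 sequences of RefSeq (GRCh38.p14) are shown, with the seed, bases 2 to 8, in capitals. They fall into 2 seed groups, the first of 3 microRNAs and the second of 2. The genes of miR-200c (chr12:6963742-6963764, plus strand) and miR-141 (chr12:6964155-6964176, plus strand) lie within MIR200CHG (chr12:6963246-6964447, plus strand), a host transcript that is in the count table.
hsa-miR-200b-3p: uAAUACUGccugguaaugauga
hsa-miR-200c-3p: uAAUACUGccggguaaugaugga
hsa-miR-429: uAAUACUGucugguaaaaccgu
hsa-miR-200a-3p: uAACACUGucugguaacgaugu
hsa-miR-141-3p: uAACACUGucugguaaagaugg

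Matches to these seeds were searched in the 3′ UTR of ZEB1 and ZEB2 on the transcribed strand, in the transcript with the longest 3′ UTR in GENCODE 29 (GRCh38). The 3′ UTR of ZEB1, 2549 bases, held 6 matches to the first seed and 3 to the second. That of ZEB2, 5370 bases, held 5 and 4. Shown for ZEB1, which had more counts than ZEB2, are the 2 sites of each seed group nearest the stop codon, with the bases that pair with the seed in capitals. They lie at chr10:31527618-31527640 and chr10:31527712-31527734 for the first seed, and at chr10:31528031-31528053 and chr10:31528782-31528804 for the second, all on the plus strand.
ZEB1 first seed, site nearest the stop codon: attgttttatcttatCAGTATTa
ZEB1 first seed, next site: atgctaaatccgcttCAGTATTt
ZEB1 second seed, site nearest the stop codon: caaaatcatcagaatCAGTGTTt
ZEB1 second seed, next site: tgagatttgatttaaCAGTGTTa

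E-boxes of the type that SNAI and ZEB factors bind, CAGGTG or CACCTG (1 motif read on both strands, which overlaps no other motif searched), were searched in RefSeq promoter windows of 250 bases before to 50 after a start (GRCh38.p14). Windows were held for 4 of the 7 members: TWIST2, ZEB1, ZEB2 and PRRX1. Of the 7 ZEB1 windows, 2 held at least 1 such E-box, as did 20.6% of all 35116 windows. The single windows of TWIST2, ZEB2 and PRRX1 held none of these letters. The ZEB1 window with the most matches of the 7 (chr10:31318966-31319265, plus strand) is shown. This window, like others of ZEB1, lies within the span of the antisense gene ZEB1-AS1 (chr10:31206278-31320447, minus strand). Its 3 matches, in capitals, begin at -242, -85 and 34 from the start. Of all windows, 0.635% held 3 or more, a share per window, whereas this one was picked as the highest of 7.
ZEB1 promoter window: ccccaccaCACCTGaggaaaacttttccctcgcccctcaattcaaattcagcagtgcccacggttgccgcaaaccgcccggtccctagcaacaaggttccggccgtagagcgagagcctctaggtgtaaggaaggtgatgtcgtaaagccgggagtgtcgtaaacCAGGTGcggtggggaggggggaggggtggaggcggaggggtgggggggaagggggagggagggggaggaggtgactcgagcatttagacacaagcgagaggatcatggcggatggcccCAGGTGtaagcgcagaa

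Library totals ranged from 15611961 to 25856953 counts. Levels are given as CPM, the count of a gene scaled to a common library total, after TMM scaling, which sets libraries to a common scale from the bulk of genes. The epithelial and basal markers EGFR, KRT5, KRT14, KRT17, KRT8, KRT18, EPCAM and CDH1 were all measured, and EGFR alone stood at 3474 ± 103 CPM in the CTR (SD, n = 4). Of the receptors that triple negative tumours lack, PGR had no count, but ESR1 and ERBB2 were measured, with at most 6.53 and 24.6 CPM in any library. Of 7 fibroblast markers, 2 passed the filter (COL1A1 and PDGFRA). The summed level of all 7 was 5.53 to 8.03 CPM in the CTR and 13.7 to 15.5 CPM at 72 h, nearly all of it COL1A1. DCN, LUM, COL1A2 and COL3A1 had at most 6 counts in any group, and PDGFRB had 1 count in the CTR and 4, 12, 22 and 10 counts in EGF in order of time. Of 5 blood cell markers, 1 passed, CD14, at up to 6.70 CPM, while HBB had no count. Mitochondrial genes held 9.03 to 12.6% of the counts in the CTR, 7.69 to 11.3% at 12 h, 11.1 to 13.8% at 24 h, 9.83 to 16.9% at 48 h and 12.3 to 16.4% at 72 h. The part of these differences in the results below was not tested. In bulk RNA, a change in the number of cells that express a gene and a change in RNA per cell cannot be told apart.

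SNAI1 (ENSG00000124216, chr20:49982999-49988886, plus strand, 3 merged exons) encodes Snail, a direct repressor of CDH1. In the 4 CTR libraries SNAI1 stood at 1.56, 2.19, 1.07 and 1.11 CPM. At 12 h it stood at 6.31, 5.67, 6.52 and 5.79 CPM, and at 24 h at 3.91, 3.50, 2.82 and 2.00 CPM. All 4 libraries at 12 h were above every CTR library, whereas at 24 h the lowest was under the highest CTR library and the other 3 were above it. At 48 h SNAI1 stood at 6.76, 6.99, 4.90 and 4.71 CPM, and at 72 h at 3.58, 3.13, 4.02 and 4.28 CPM. Both of these groups lay above every CTR library, and the lowest library at 48 h lay above the highest at 72 h. These levels rest on 23 to 52 counts per library in the CTR and on 41 to 143 in EGF.

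**Figure D1:**
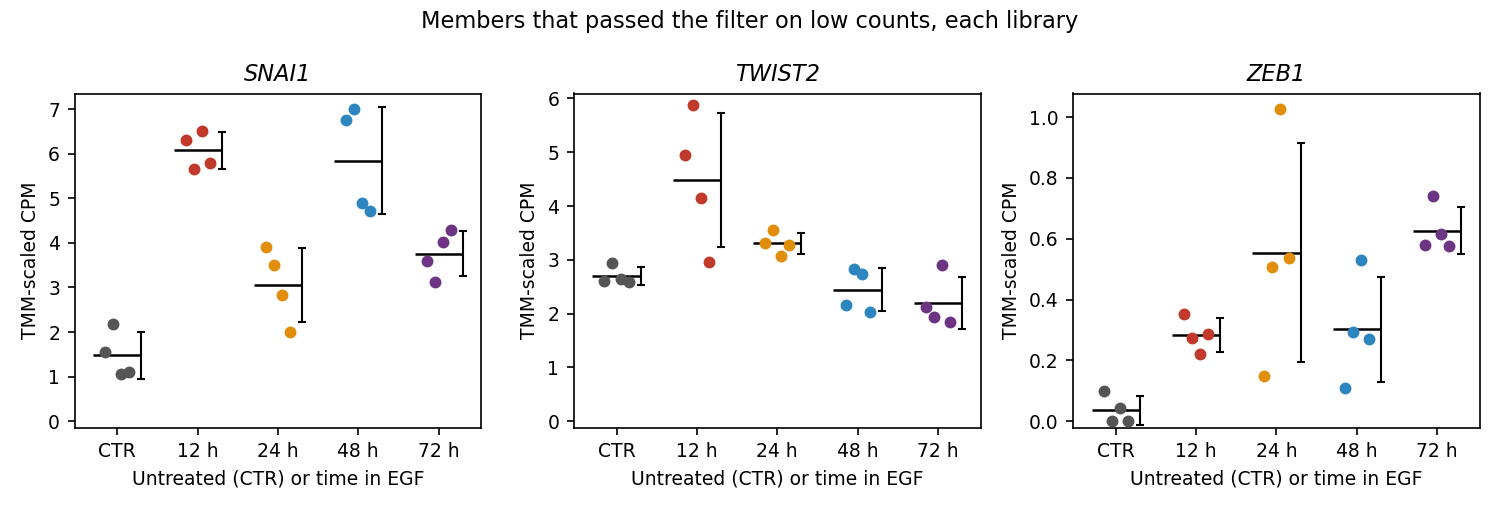
Level of SNAI1, TWIST2 and ZEB1 in TMM-scaled CPM (y axis, linear, a separate scale for each gene) in every library (points) of the CTR and of 12, 24, 48 and 72 h in EGF (x axis), with the mean (line) and SD (bar) of the 4 libraries of a group. SNAI1 has 2 high groups, 12 and 48 h, TWIST2 is highest at 12 h, and all ZEB1 libraries in EGF lie above those of the CTR.

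Differences were tested in edgeR by its quasi-likelihood test. P-values were adjusted by the Benjamini-Hochberg method for all 16522 genes that passed the filter on low counts, and a call needs an adjusted p under 0.05. Against the CTR, SNAI1 was upregulated by a log2 fold change of 2.03 (SE 0.21, adjusted p = 1.09e-08) at 12 h. At 24 h the log2 fold change came to 1.04 (SE 0.23, adjusted p = 0.000367), at 48 h to 1.97 (SE 0.21, adjusted p = 6.25e-08) and at 72 h to 1.33 (SE 0.22, adjusted p = 1.49e-05). All 4 EGF-treatments were compared with the same 4 CTR libraries. The 4 upregulation calls were kept when each library was left out in turn, and under each other scaling, filter, tool and the replicate block.

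The steps between time points were tested in the same model. From 12 to 24 h SNAI1 fell, with a log2 fold change of -0.99 (SE 0.20, adjusted p = 0.000232). From 24 to 48 h it rose by 0.93 (SE 0.20, adjusted p = 0.000485), and from 48 to 72 h it fell again, with -0.64 (SE 0.20, adjusted p = 0.0135). In each of these steps all 4 libraries of the later time lay on the same side of all 4 of the earlier one. The 48 h level was not separated from that at 12 h (log2 fold change -0.06, 95% interval -0.45 to 0.33, adjusted p = 0.782), nor was the 72 h level from that at 24 h (0.29, interval -0.14 to 0.72, adjusted p = 0.278). At 72 h SNAI1 was lower than at 12 h (-0.70, SE 0.20, adjusted p = 0.0032). After these values were seen, genes with the same 4 calls (higher at 12 h, then lower, higher and lower at each next time) were counted, and 22 of 16522 genes (0.133%) had them, SNAI1 included. With scaling by library size only, 26 genes had them, and with scaling by upper quartiles 18, SNAI1 again included in both.

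TWIST2 (ENSG00000233608, chr2:238848032-238910543, plus strand, 3 merged exons) encodes Dermo1, a TWIST1 relative of the dermis and skeleton. In the CTR TWIST2 stood at 2.61, 2.94, 2.65 and 2.60 CPM, and at 12 h at 4.95, 5.88, 4.14 and 2.96 CPM. All 4 libraries at 12 h were above every CTR library, though the lowest of them exceeded the highest CTR library by little. At 24 h TWIST2 stood at 3.31, 3.56, 3.08 and 3.27 CPM, at 48 h at 2.16, 2.84, 2.74 and 2.04 CPM, and at 72 h at 2.12, 1.93, 2.90 and 1.85 CPM. The groups at 48 and 72 h overlapped the CTR, with 2 and 3 of 4 libraries below it. Library counts ran from 29 to 108.

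TWIST2 was upregulated at 12 h by a log2 fold change of 0.73 (SE 0.18, adjusted p = 0.000897), which was kept in every alternative run. At 24 h all 4 libraries were again above the CTR, but the log2 fold change of 0.29 (95% interval -0.09 to 0.67) did not pass the test (adjusted p = 0.176). At 48 h it was -0.14 (interval -0.52 to 0.24, adjusted p = 0.562), and at 72 h -0.29 (interval -0.68 to 0.10, adjusted p = 0.186). Against 12 h, TWIST2 was downregulated at 48 h (log2 fold change -0.87, SE 0.18, adjusted p = 0.000163) and at 72 h (-1.02, SE 0.18, adjusted p = 3.74e-05), with no overlap of the libraries.

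The smaller steps of TWIST2 were near the threshold. The fall from 12 to 24 h (log2 fold change -0.44, adjusted p = 0.0419) was lost without EGF 12 h replicate 1 (-0.39) or replicate 2 (-0.28), and without EGF 24 h replicate 1 (-0.44), replicate 3 (-0.41) or replicate 4 (-0.43), with adjusted p from 0.0712 to 0.203. It was also lost under both other scalings. The step from 24 to 48 h (-0.43, adjusted p = 0.0548) passed only without EGF 48 h replicate 2 (-0.51) or replicate 3 (-0.50), with the replicate block, or with the 8 libraries compared alone. The fall from 24 to 72 h (-0.58, SE 0.19, adjusted p = 0.0162) was lost without EGF 72 h replicate 1 (-0.55) or replicate 4 (-0.52), with the adjusted p then just over the threshold.

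ZEB1 (ENSG00000148516, chr10:31318495-31529814, plus strand, 23 merged exons) encodes the repressor that faces miR-200 in a mutual loop. It had 2, 0, 1 and 0 counts in the CTR libraries, 7, 5, 4 and 6 at 12 h and 3, 9, 16 and 11 at 24 h. At 48 h it had 2, 6, 14 and 6 counts, and at 72 h 15, 13, 11 and 9. In CPM, every library in EGF lay above every CTR library, by little in the case of EGF 48 h replicate 1, at 0.111 against 0.1 CPM. The widest spread was at 24 h, from 0.148 to 1.03 CPM, and the narrowest relative to its mean at 72 h, from 0.575 to 0.740 CPM.

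ZEB1 passed the filter with 7 libraries at or above the required 0.490 CPM, of which none was in the CTR or at 12 h, so its passing depends on the groups where it is high. Over pooled counts, the ratio to the CTR was 8.36 at 12 h (22 against 3 counts, 95% interval 2.51 to 43.6) and 15.4 at 24 h (4.91 to 78.1). It was 9.45 at 48 h (2.92 to 48.5) and 18.2 at 72 h (5.88 to 91.6). These exact binomial intervals cover counting error only. The adjusted p was 0.00179, 5.19e-05, 0.00167 and 1.71e-05 in order of time, given as a description because the gene entered the test through those groups. The size depends on the CTR replicate 1, which holds 2 of the 3 CTR counts: without it the fitted log2 fold change at 12 h was 3.8 rather than 2.85, at 24 h 4.71 rather than 3.75, at 48 h 3.94 rather than 2.99 and at 72 h 4.92 rather than 3.96. With only the 8 libraries compared, ZEB1 no longer passed the filter at 12, 24 and 48 h and was tested at 72 h alone.

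Between time points, ZEB1 was higher at 72 than at 12 h in all 4 libraries, with a log2 fold change of 1.12 (SE 0.48, adjusted p = 0.0417). This call was lost without any 1 of the 8 libraries of these groups (log2 fold change 1.02 to 1.24, adjusted p 0.0517 to 0.096). Since none of the 12 h libraries reached the filter's cutoff, it too is given as a description. The steps from 12 to 24 h (0.91, SE 0.49), from 24 to 48 h (-0.76, SE 0.47) and from 48 to 72 h (0.98, SE 0.46) did not pass (adjusted p = 0.121, 0.184 and 0.102). Without EGF 24 h replicate 1, which had 3 counts, the first became 1.24 and the second -1.10, both then past the threshold. Without EGF 48 h replicate 3, which had 14 counts, the third became 1.42 and passed.

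**Figure D2:**
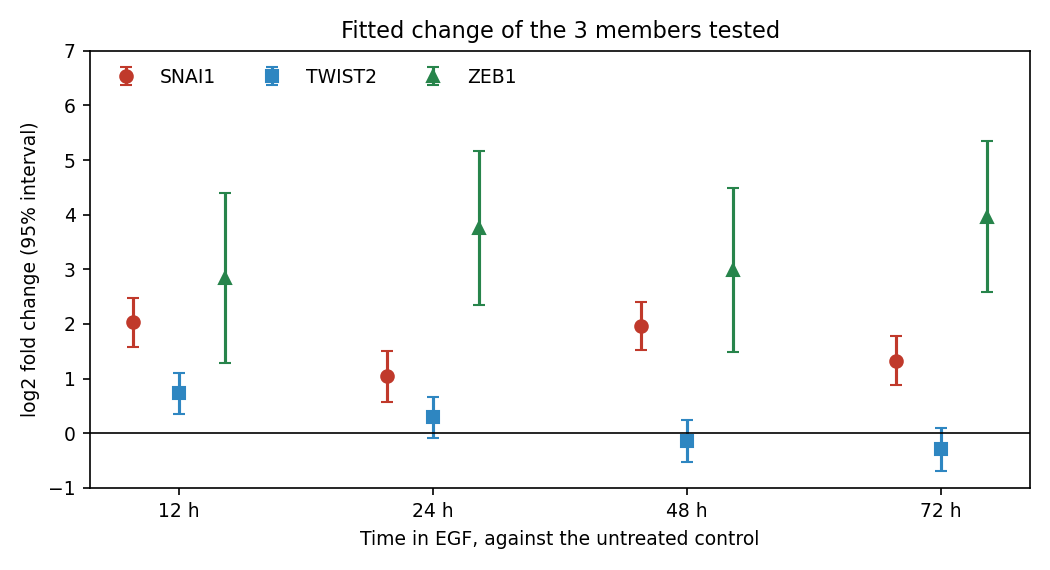
Log2 fold change of SNAI1 (circles), TWIST2 (squares) and ZEB1 (triangles) at each time in EGF against the CTR (x axis), from edgeR, with the 95% interval (bars) and a line at 0. SNAI1 lies at 2.03, 1.04, 1.97 and 1.33, TWIST2 leaves 0 only at 12 h, and ZEB1 is high with wide intervals that come from 3 CTR counts.

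The counts of members called are read against the background of all genes. At 12 h, 3 of 7 members were called against the CTR, all higher, where 69.4% of all genes tested were called, 32.9% higher and 36.5% lower. At 24 h, 2 members (SNAI1 and ZEB1) were called higher, against 58.8% of all genes called, 29.2% higher and 29.6% lower. At 48 h the same 2 were called, against 45.8% of all genes, 24% higher and 21.8% lower. At 72 h these 2 were called again, against 61.6% of all genes, 30.6% higher and 31% lower. These counts set 7 members, of which 4 could not be tested, against tested genes only. ZEB1 could be tested only through the groups where it is high, so its calls are not comparable with that background, and nothing about the members as a set is read from the counts. Between time points, SNAI1 and TWIST2 were called lower from 12 to 24 h (53.7% of all genes called), SNAI1 higher from 24 to 48 h (50.2%) and SNAI1 lower from 48 to 72 h (35.7%). SNAI1 and TWIST2 were lower and ZEB1 higher at 72 than at 12 h (67.6% of all genes, 35.6% higher and 32% lower). TWIST2 was lower at 48 than at 12 h (70.3% of all genes, 37.7% higher and 32.5% lower), and TWIST2 lower at 72 than at 24 h (40.2%).

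TWIST1 (ENSG00000122691, chr7:19020991-19117672, minus strand), the bHLH factor of cranial mesoderm and neural crest, failed the filter with 47 counts in all. It had 0, 0, 0 and 1 counts in the CTR, 3, 5, 8 and 3 at 12 h, 6, 2, 1 and 1 at 24 h, 1, 0, 1 and 1 at 48 h, and 6, 4, 2 and 2 at 72 h. At 12, 24 and 72 h all 4 libraries were above the CTR in CPM, while at 48 h they were not. The margin at 24 h was small, with 0.0488 CPM in EGF 24 h replicate 4 against 0.0481 CPM in CTR replicate 4, each from 1 count. The two-sided exact permutation test over libraries gave p = 0.0286 at each of 12, 24 and 72 h, the smallest that 4 against 4 libraries can give, and p = 0.371 at 48 h. Over the 12 tests of TWIST1, ZEB2 and PRRX1 the first 3 became 0.114 after Benjamini-Hochberg adjustment. Since these 3 were already the smallest possible, they could not have passed the threshold beside the other tests, and nothing is read from the adjusted value. The permutation p at 24 h rests on the small margin given above. The ratio of pooled counts to the CTR at 12 h was 21.6, with a 95% interval from 3.44 to 899.5, since the CTR holds 1 count. When every gene with at least 1 count was tested, edgeR's adjusted p for TWIST1 came to 0.000717, 0.0236, 0.528 and 0.00573 in order of time.

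TWIST1 and TWIST2 are alike in their coding sequence, so reads could be shared between them. No stretch of 75 bases, the read length, occurs in the transcripts of both genes in GENCODE 29. Their longest common run is 23 bases in the coding sequence of each, at chr7:19116903-19116925 on the minus strand and chr2:238848486-238848508 on the plus strand.
TWIST1 and TWIST2 common run: aagatcatccccacgctgccctc

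The other low members had fewer counts still. PRRX1 (ENSG00000116132, chr1:170662728-170739419, plus strand) had 9 counts in all, none in the CTR or at 12 h. It had 1, 1, 0 and 0 counts at 24 h, 1, 0, 0 and 0 at 48 h, and 2, 4, 0 and 0 at 72 h, so 2 of the 4 libraries at 72 h held none. Its exact permutation p was 0.429 at 24 and 72 h and 1 at 48 h, and its adjusted p was 0.0434 at 72 h when all genes with a count were tested. ZEB2 (ENSG00000169554, chr2:144364364-144524583, minus strand), the partner of ZEB1 in the family, had 3 counts in all, 1 each in CTR replicate 3, EGF 24 h replicate 3 and EGF 72 h replicate 4. SNAI2 (ENSG00000019549, chr8:48917604-48921740, minus strand) encodes Slug, the repressor of neural crest and basal mammary cells. It had 0 counts in all 20 libraries, which allows a level of up to 0.00744 CPM over all of them (3 counts) and of up to 0.192 CPM in the shallowest library. A change of ZEB2 or SNAI2 was not detectable at this depth, and the PRRX1 call at 72 h without the filter rests on 6 counts in 2 libraries.

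**Figure D3:**
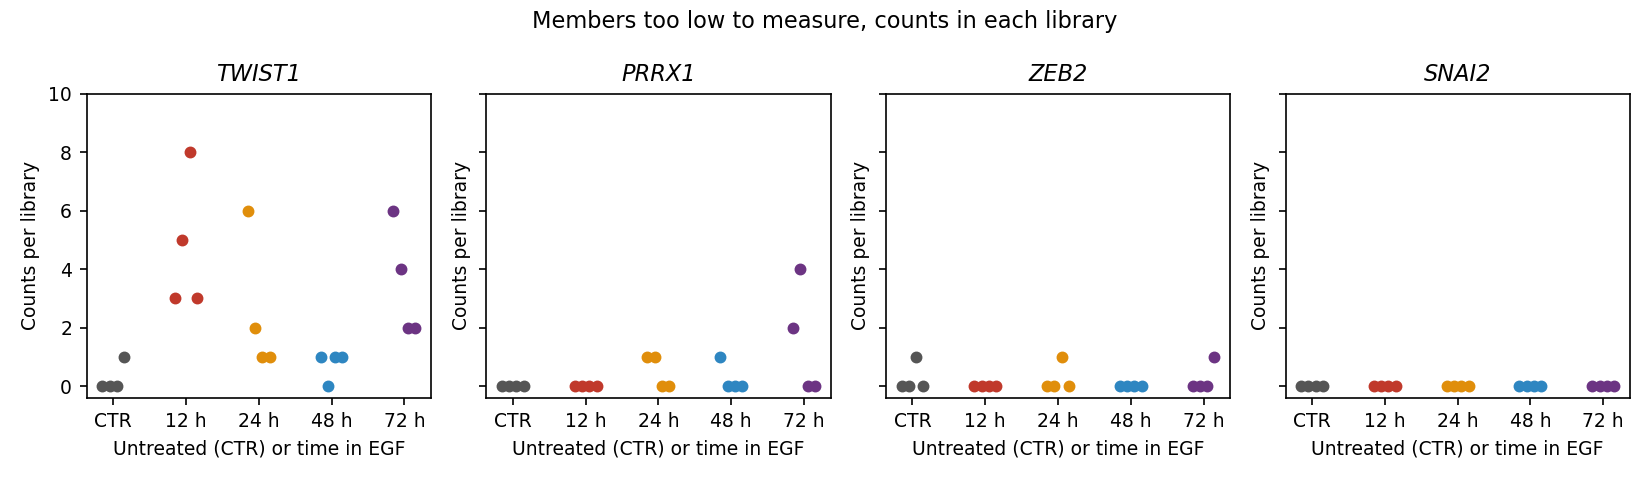
Counts of TWIST1, PRRX1, ZEB2 and SNAI2 (y axis, whole counts on a shared linear scale) in every library (points) of the CTR and of 12, 24, 48 and 72 h in EGF (x axis). TWIST1 reaches 8 counts at 12 h and has 1 in the CTR, PRRX1 reaches 4, ZEB2 never exceeds 1, and SNAI2 is at 0 throughout.

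Levels can be set side by side between genes only per length, here as CPM per kilobase of merged exon, with the SD of 4 libraries. In the CTR TWIST2, at 1.44 ± 0.0873 CPM per kb, was the highest member, above SNAI1 at 0.877 ± 0.309, and their libraries did not overlap. At 12 h the order was turned, with SNAI1 at 3.60 ± 0.243 and TWIST2 at 2.39 ± 0.659 CPM per kb, again without overlap. At 24 h SNAI1 (1.81 ± 0.495) and TWIST2 (1.76 ± 0.106) overlapped. SNAI1 was then the higher at 48 h (3.46 ± 0.713 against 1.30 ± 0.214 CPM per kb) and at 72 h (2.23 ± 0.300 against 1.17 ± 0.256), without overlap.

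The other 5 members lay far below. TWIST1 per kb was above ZEB1 at 12 h (0.124 ± 0.0686 against 0.0328 ± 0.00632 CPM per kb), without overlap. At 24, 48 and 72 h TWIST1 and ZEB1 overlapped, with 0.0859 ± 0.0313 and 0.0724 ± 0.00894 CPM per kb at 72 h. PRRX1 reached 0.00924 and ZEB2 0.00064 CPM per kb at most as a group mean, and SNAI2 stood at 0. The merged exons of ZEB2 span 25.1 kb because many transcripts are annotated, which lowers its value per length.

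**Figure D4:**
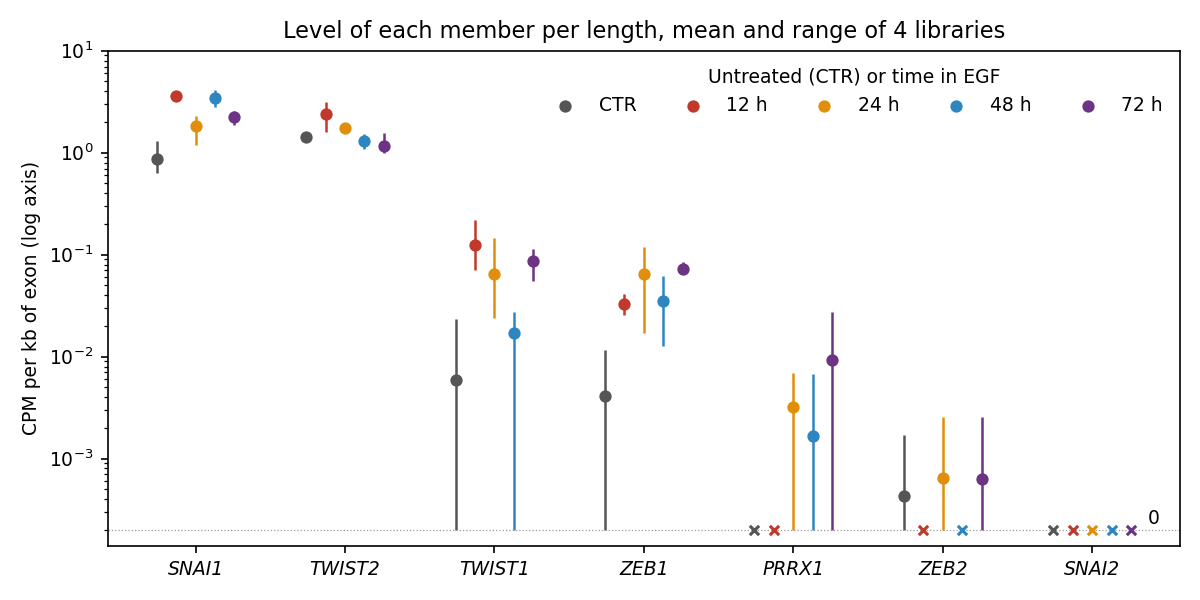
Level of each member in CPM per kb of merged exon (y axis, log axis) in the CTR and at 12, 24, 48 and 72 h in EGF (colours), as the mean (point) and the range of the 4 libraries (line, which reaches the dotted line where a library is at 0), with crosses on the dotted line for groups at 0. SNAI1 and TWIST2 lie near 1 to 4 CPM per kb, TWIST1 and ZEB1 under 0.22, and PRRX1, ZEB2 and SNAI2 lowest.

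ZEB1 shares 366 of its exon bases (4.23%) with the antisense gene ZEB1-AS1, and TWIST1 shares 141 (6.94%) with an antisense transcript. Whether the counting used strand is not given in the sources used here, so reads from these stretches cannot be told apart. ZEB1-AS1 fell from 2.88 ± 0.506 CPM in the CTR to 0.887 ± 0.153 at 12 h (log2 fold change -1.70, adjusted p = 4.15e-07), the time at which ZEB1 was already above the CTR. At 24 h ZEB1-AS1 stood at 4.34 ± 1.14 CPM (log2 fold change 0.59, adjusted p = 0.00968), a call that was lost without EGF 24 h replicate 1 (0.39, adjusted p = 0.0732). At 48 and 72 h it did not pass the test (0.21 and -0.05). SNAI1 and its pseudogene SNAI1P1 have a common run of at most 37 bases, and SNAI1P1 had no count. No member shares exon bases with a gene on its own strand.

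MIR200CHG, which carries miR-200c and miR-141, was at 0.964 ± 0.409 CPM in the CTR and did not pass the test at 12 and 24 h (log2 fold change -0.23 and -0.25). It was upregulated at 48 h (1.96 ± 0.875 CPM, log2 fold change 1.01, adjusted p = 0.00508) and at 72 h (2.37 ± 0.293 CPM, log2 fold change 1.28, adjusted p = 0.000385). At these times ZEB1 had 28 and 48 counts over 4 libraries. The 5 miR-200 genes themselves had at most 3 counts in any group, and mature microRNAs are not captured by mRNA libraries.

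Other transcription factors linked to EMT were followed as a list of 13, of which 9 were tested. At 12 h, 7 of them were higher and 2 lower than the CTR, with a median log2 fold change of 1.06 against -0.05 over all genes. At 24 h 6 were higher and 2 lower, at 48 h 2 and 3, and at 72 h 5 and 3. Of all genes tested, 32.9% were higher and 36.5% lower at 12 h, and 29.2% and 29.6% at 24 h. At 48 h these shares were 24% and 21.8%, and at 72 h 30.6% and 31%. HMGA2, a chromatin factor that raises SNAI1 and TWIST1 transcription, went from 0.524 ± 0.161 to 35.2 ± 0.798 CPM at 12 h (log2 fold change 6.06, adjusted p = 1.23e-14) and stood at 13 ± 1.75 CPM at 72 h. FOXQ1, a forkhead repressor of CDH1, went from 11 ± 0.227 to 132 ± 8.14 CPM at 12 h (log2 fold change 3.58) and did not differ past the threshold at 48 h (0.17, adjusted p = 0.493). PRRX2, the relative of PRRX1, was measurable where PRRX1 was not, with 1.08 ± 0.299 CPM in the CTR and 3.62 ± 0.279 at 12 h (log2 fold change 1.73). SOX9, a regulator of mammary progenitors, rose from 119 ± 13.8 to 437 ± 34.5 CPM at 12 h (log2 fold change 1.88). SNAI3, the remaining Snail gene, failed the filter with 8 to 22 counts per group.

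Genes that E-box repressors are known to silence were mostly higher than the CTR at 12 h, the time of the first SNAI1 maximum. Of 14 such epithelial genes, all tested, 11 were higher and 3 lower than the CTR at 12 h, with a median log2 fold change of 0.71. At 24 h 6 were higher and 4 lower, at 48 h, the second maximum of SNAI1, 2 higher and 5 lower (median -0.15), and at 72 h 5 higher and 6 lower. Over all genes tested, 32.9% were higher and 36.5% lower at 12 h, and 29.2% and 29.6% at 24 h. The shares at 48 h were 24% and 21.8%, and at 72 h 30.6% and 31%. CDH1 rose from 127 ± 16.5 to 181 ± 4.90 CPM at 12 h (log2 fold change 0.51, adjusted p = 4.76e-06) and was then below the CTR, by -0.32 at 24 h, -0.46 at 48 h and -0.49 at 72 h. PKP2, a desmosomal plaque protein, rose from 69.7 ± 5.83 to 207 ± 3.81 CPM at 12 h, and CDH3, which encodes P-cadherin, from 28.8 ± 4.51 to 102 ± 3.23. CLDN4, a tight junction protein, rose from 48.9 ± 4.92 to 109 ± 9.14 CPM at 12 h. TJP3, a tight junction scaffold, fell from 19.7 ± 2.69 to 8.93 ± 0.992 CPM at 12 h (log2 fold change -1.14).

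Of 17 mesenchymal genes, 12 were tested, and 9 were higher and none lower at 12 h, with a median log2 fold change of 1.07. At 24 h the count was 9 and 0, and at 48 and 72 h 10 and 1. Among all genes tested, 32.9% were higher and 36.5% lower at 12 h, and 29.2% and 29.6% at 24 h. The shares at 48 h were 24% and 21.8%, and at 72 h 30.6% and 31%. VIM, the intermediate filament of mesenchymal cells, rose from 20.3 ± 1.46 CPM to 204 ± 15.1 at 12 h and 383 ± 9.76 at 24 h, and stood at 165 ± 0.856 at 72 h. FN1, which encodes fibronectin, was highest at 72 h, at 256 ± 20.6 CPM against 17.8 ± 2.19 in the CTR. TAGLN, a smooth muscle actin binder, was the list's 1 gene called lower at 48 and 72 h (log2 fold change -1.03 and -1.0), after a rise to 18.5 ± 1.75 CPM at 12 h from 1.43 ± 0.231. EZR, which encodes the membrane linker ezrin, rose from 99.3 ± 3.08 to 274 ± 6.11 CPM at 12 h. CDH2, which encodes N-cadherin, failed the filter with 3 to 14 counts per group.

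Epithelial transcription and splicing factors, which oppose the members, moved in both directions. Of 11, all tested, 6 were higher and 3 lower at 12 h (median log2 fold change 0.18), 5 and 5 at 24 h, 3 and 5 at 48 h and 4 and 5 at 72 h. The 12 h median depends on the scaling. With scaling by library size only, the median over all genes at 12 h was -0.34 instead of -0.05, a shift larger than 0.18. Over all genes tested, 32.9% were higher and 36.5% lower at 12 h, and 29.2% and 29.6% at 24 h. The shares at 48 h were 24% and 21.8%, and at 72 h 30.6% and 31%. GRHL3, a grainyhead factor of epidermal barrier, fell from 18.7 ± 2.55 CPM to 3.72 ± 0.233 at 48 h (log2 fold change -2.33), and GRHL2, which keeps ZEB1 off in epithelia, from 43.5 ± 6.73 to 22.9 ± 1.98 at 12 h (log2 fold change -0.93). The Krüppel-like factors KLF5 and KLF4 rose at 12 h, KLF5 from 135 ± 25.5 to 450.2 ± 12.2 CPM and KLF4 from 8.68 ± 0.657 to 23.1 ± 1.2.

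**Figure D5:**
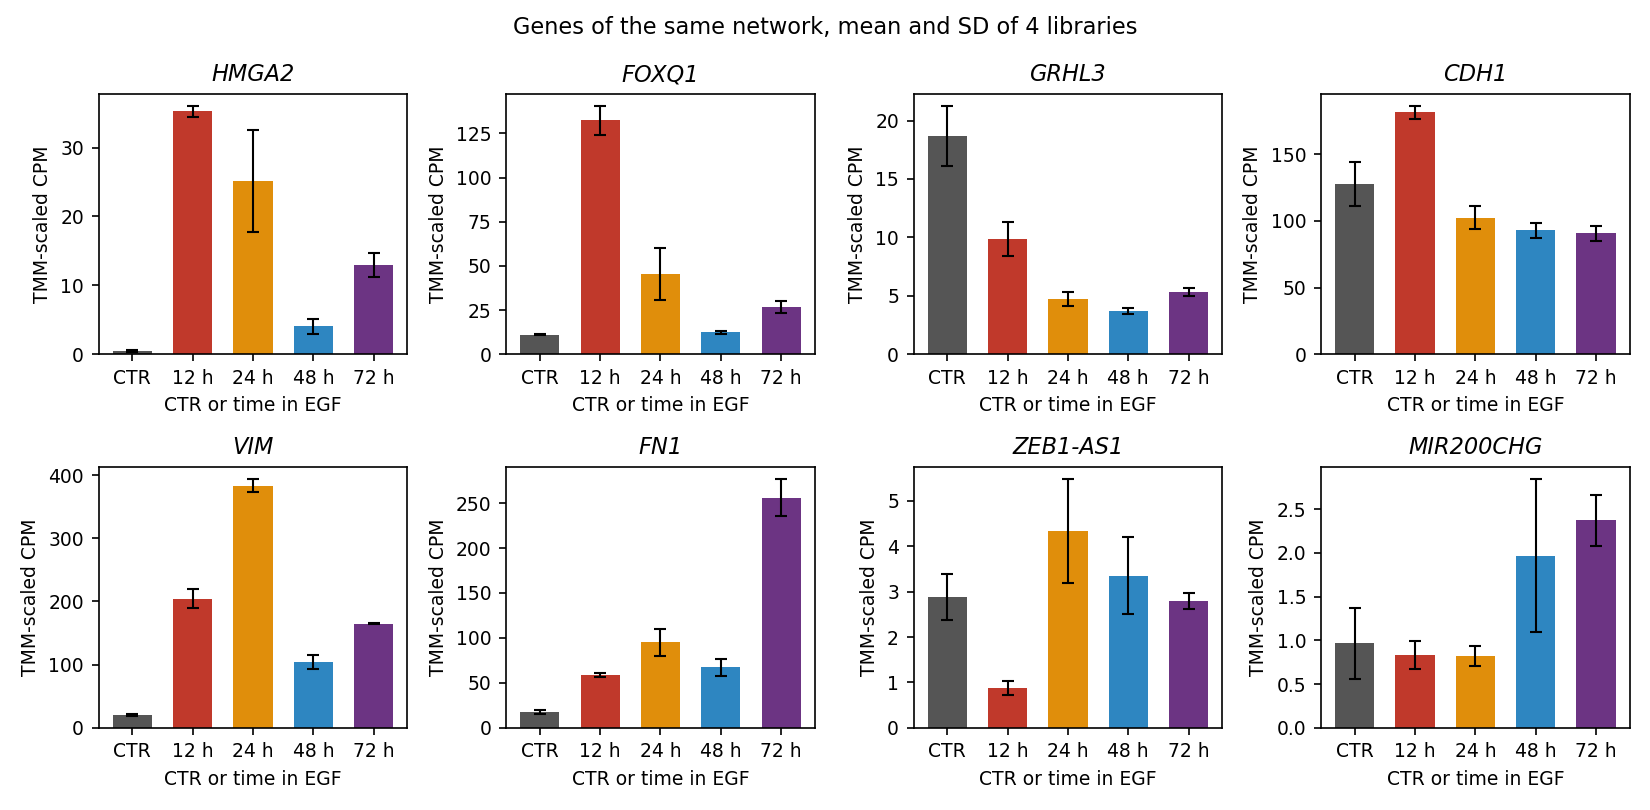
Mean level in TMM-scaled CPM (bars from 0, with the SD of 4 libraries) of HMGA2, FOXQ1, GRHL3, CDH1, VIM, FN1, ZEB1-AS1 and MIR200CHG in the CTR and at 12, 24, 48 and 72 h in EGF (x axis), each gene on its own linear scale. HMGA2 and FOXQ1 are highest at 12 h, VIM at 24 h and FN1 at 72 h, CDH1 is above the CTR only at 12 h, and ZEB1-AS1 is lowest at 12 h.

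Partners of the members were also followed. TWIST factors pair with E proteins, and ID proteins take E proteins away. Of 7 such genes, 5 were tested, with 2 higher and 3 lower at 12 h, 1 and 3 at 24 h, and 1 and 4 at 48 and 72 h. Among all genes tested, 32.9% were higher and 36.5% lower at 12 h, and 29.2% and 29.6% at 24 h. The shares at 48 h were 24% and 21.8%, and at 72 h 30.6% and 31%. ID1 rose from 1.59 ± 0.300 to 20.7 ± 1.36 CPM at 12 h (log2 fold change 3.70), whereas ID2 (-0.85), ID3 (-1.34) and ID4 (-2.52) fell. TCF3, the one E protein that was measurable, rose at 12 h (0.42, adjusted p = 0.0001) and was lower than the CTR at 48 h (-0.62) and 72 h (-0.80), while TCF4 and TCF12 had at most 4 counts in any group.

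Of 17 corepressors that SNAI1 and ZEB1 recruit, all tested, 9 were higher and 2 lower at 12 h, 4 and 4 at 24 h, 2 and 9 at 48 h, and 5 and 10 at 72 h. The median log2 fold change went from 0.17 at 12 h to -0.21 at 48 h and -0.29 at 72 h. The 12 h value depends on the scaling. With scaling by library size only, the median over all genes at 12 h was -0.34 instead of -0.05, a shift larger than 0.17. Of all genes tested, 32.9% were higher and 36.5% lower at 12 h, and 29.2% and 29.6% at 24 h. At 48 h these shares were 24% and 21.8%, and at 72 h 30.6% and 31%. RCOR1, the CoREST scaffold that brings the demethylase KDM1A to SNAI1, rose from 66.0 ± 4.12 to 141 ± 6.43 CPM at 12 h. EHMT2, a histone methyltransferase, fell from 32.7 ± 5.88 to 17.9 ± 1.42 CPM at 72 h. Of the LIM proteins that bind the SNAG domain of SNAI1, AJUBA fell from 13.2 ± 0.700 to 6.80 ± 0.906 CPM at 72 h and WTIP rose from 2.20 ± 0.730 to 3.97 ± 0.744 CPM at 12 h.

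SNAI1 protein is short-lived, so genes that mark it for decay or keep it were followed as a list of 14, of which 13 were tested. At 12 h 8 were higher and 1 lower, at 24 h 9 and 2, at 48 h 1 and 1 and at 72 h 6 and 2. Over all genes tested, 32.9% were higher and 36.5% lower at 12 h, and 29.2% and 29.6% at 24 h. The shares at 48 h were 24% and 21.8%, and at 72 h 30.6% and 31%. GSK3B, the kinase that primes SNAI1 for ubiquitination, rose from 172 ± 3.50 to 359.7 ± 9.92 CPM at 12 h (log2 fold change 1.07), and its relative GSK3A from 66.9 ± 10.7 to 105 ± 5.60 (0.65). LATS2, a kinase that holds SNAI1 in the nucleus, rose from 12.0 ± 1.04 to 33.2 ± 1.97 CPM (1.47), and FBXO45, an F-box protein that targets SNAI1, from 25.4 ± 3.64 to 47.8 ± 3.32 (0.91). The data hold RNA only, so the level of the SNAI1 protein was not measured.

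The genes whose pattern was most like that of each measured member were named by Pearson's r of log2 CPM over the 20 libraries, as a description, since libraries of a group share their treatment. For SNAI1 they were PORCN (r = 0.911), which acylates Wnt proteins, KIF3C (0.911), a kinesin, and ITGB5 (0.906), an integrin subunit. PORCN stood at 3.4, 6.5, 4.17, 7.02 and 5.14 CPM from the CTR to 72 h, highest at 12 and 48 h. For TWIST2 they were BICRA (0.873), a chromatin remodelling subunit, PPP1R12C (0.870), a phosphatase subunit, and NFKB1 (0.869), which stood at 26.8, 40.7, 32.8, 25.4 and 23.3 CPM. For ZEB1 they were the noncoding LINC00294 (0.936), NBPF8 (0.924), of a family with near-identical copies, and TACC1 (0.906), at 43.6, 66.2, 73.7, 59.1 and 83.1 CPM. Among the members, r was 0.41 between SNAI1 and ZEB1, 0.23 between SNAI1 and TWIST2 and -0.03 between TWIST2 and ZEB1.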

How the data were processed

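RNA from 20 cultures was made into Lexogen Corall mRNA libraries and read as 75 bp single-end reads. The deposited tables hold estimated counts per gene, which are whole numbers in the files as the authors gave them. The 10 tables hold the same counts. Per the labels the values were made with DESeq2 on hg38 (submitters' processing notes), while the aligner, the counter, its strand setting and the use of molecular identifiers are not given in the sources used here, so counts may hold PCR duplicates. The deposited normalized values of the authors, a score, served as an alternative without a test. The authors' comparison columns (fold changes, p-values and adjusted p-values) were not used.

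Library totals ran from 15611961 to 25856953 counts. Genes were filtered with filterByExpr (0.490 CPM in at least 4 libraries), which kept 16522 of 60271 genes with 99.9% of the counts, and were scaled by TMM. One model over all 5 groups was fitted with edgeR 4.0.16 (R 4.3.3, limma 3.58.1), with its quasi-likelihood test and Benjamini-Hochberg adjustment, two-sided. Fitted log2 fold changes use a prior count of 0.125. Members that failed the filter were compared by an exact permutation test over 70 arrangements of the libraries. Intervals of count ratios are exact binomial at 95%, and a count of 0 allows up to 3 counts. These intervals and limits cover counting error only. The SE of a log2 fold change was derived from its size and the edgeR test statistic, so its 95% interval includes the spread between replicates. P-values measure the spread between these cultures of 1 line. The procedure was tested on simulated data in which few genes changed, whereas 69.4% of the genes tested were called here at 12 h. The simulation thus did not test the scaling under so broad a change. Alternatives were other scalings, filters and models, DESeq2 1.42.0, a replicate block and leaving out each library.

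Members and lists were chosen with earlier results of these data known. Named genes are the 4 of each list with the largest absolute log2 fold change against the CTR among those called, beside CDH1, CDH2, VIM, FN1, EZR and EGFR whatever their values; others are named to complete a list or marker check. Some genes of the lists count in the totals but are not reported here by name. Likeness was Pearson's r over genes with a mean of at least 1 CPM. Seed matches and exon lengths use GENCODE 29, promoters and microRNAs RefSeq. A share of E-box windows over the list of repressed epithelial genes was void, since windows were held for 9 of 14 genes.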

Additional observations from a re-analysis of the deposited data

Results flagged for a closer look

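Libraries that stood apart within their group were sought in 36 genes and 5 groups, as a gap to the nearest library that exceeds Dixon's critical share of the group's range, which chance gives in about 1 in 20 groups of 4. Among the members, TWIST2 stood at 2.94 CPM in CTR replicate 2 against 2.60 to 2.65 CPM in the other CTR libraries. Among related genes, PRRX2 stood at 1.21 CPM in EGF 72 h replicate 4 against 2.22 to 2.27 CPM. CTR replicate 1 had 97.2 CPM of KLF5 against 146 to 150 CPM in the others, and 103.9 CPM of EZR against 97.3 to 98.1 CPM. CDH1 stood at 101.6 CPM in EGF 48 h replicate 2 against 89.2 to 90.8 CPM.

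The response to EGF differed between times for SNAI1 and TWIST2, by the test of the difference itself in edgeR. For SNAI1 the log2 difference was -0.99 from 12 to 24 h, 0.93 from 24 to 48 h, -0.64 from 48 to 72 h and -0.70 from 12 to 72 h. For TWIST2 it was -0.44 from 12 to 24 h, -0.87 from 12 to 48 h, -1.02 from 12 to 72 h and -0.58 from 24 to 72 h. The first of these calls was lost in 5 runs that left out a library and in 3 other settings. The last was lost in 2 runs that left out a library. For ZEB1 the log2 difference was 1.12 from 12 to 72 h, a call that was lost without any 1 of the 8 libraries of these groups. ZEB1 entered the test only through the groups where it is high, so its value is given as a description.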

How the results depend on the processing

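The SNAI1 calls against the CTR at all 4 times and the TWIST2 call at 12 h kept direction and side of the threshold in every alternative with a test. ZEB1 could not be tested at 12, 24 and 48 h with the 8 libraries alone, nor at any time with at least 10 counts. With scaling by library size only, the median log2 fold change of all genes was -0.34 at 12 h and -0.15 at 24 h instead of -0.05 and -0.01, and genes called at 12 h split into 3581 higher and 8275 lower instead of 5433 and 6032, at 24 h into 3666 and 6421 instead of 4819 and 4898. With upper quartiles the 12 h median was -0.22 and the split was 4317 and 7299. SNAI1 at 48 against 12 h, not called, turned to 0.23 (library size), 0.12 (upper quartiles) and 0.012 (at least 10 counts in every library), and ranged from -0.16 to 0.025 with each library left out, at 0.01 without EGF 48 h replicate 3. TWIST2 from 12 to 24 h lost its call at -0.29, -0.32 and -0.40 under the same settings. TWIST2 from 24 to 48 h became a call at -0.42 with the 8 libraries compared alone. ZEB1 at 72 against 12 h lost its call with DESeq2 (1.14) and with no filter (1.08). The authors' normalized values gave ZEB1 3.66 at 48 h, 0.48 from 48 to 72 h, 0.86 at 48 against 12 h and 1.34 at 72 against 12 h. The causes were not tested.

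With each library left out, TWIST2 ranged from -0.60 to -0.28 (12 to 24 h), -0.51 to -0.35 (24 to 48 h) and -0.74 to -0.52 (24 to 72 h). ZEB1 ranged from 0.47 to 1.24 (12 to 24 h), -1.21 to -0.33 (24 to 48 h), 0.74 to 1.42 (48 to 72 h), -0.30 to 0.38 (12 to 48 h), 1.02 to 1.24 (12 to 72 h) and -0.12 to 0.65 (24 to 72 h). Members called ranged from 1 to 2 for each step to the next time, and from 0 to 1 at 72 against 24 h. Against the CTR, 1 member was called at 24 and 48 h with at least 10 counts or with the 8 libraries alone, where ZEB1 failed the filter, and at 72 h 1 with at least 10 counts and 4 with no filter. From 12 to 24 h 1 was called under either other scaling or with at least 10 counts, from 24 to 48 h 2 with the 8 libraries alone, and at 48 against 12 h 2 with no filter. At 48 h, 3 of the other EMT factors were called with at least 10 counts, and with the 8 libraries alone 4 E-box genes, 7 corepressors and 1 turnover gene, the last list ranging from 1 to 4 with each library left out. In the main run 45.8% of all genes tested were called at 48 h.

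Replicate numbers were checked as a pairing: deviations of same-numbered libraries correlated from -0.239 to 0.348, 5 of 40 pairs were over 0.1, and 8 of 20 libraries correlated best with their own number. Whether same-numbered libraries share more than a number was not tested. With the replicate block, 5512 genes were higher and 6065 lower at 12 h, and 4079 and 3750 at 48 h, and the members' calls changed only for TWIST2 from 24 to 48 h (-0.45, then 2 members called). Leaving out 1 library or using another setting removed the call of a single related gene in 30 cases and reversed none. Promoter windows of 250 bases before the start alone were not run. Depth limits SNAI2, TWIST1, ZEB2 and PRRX1 in all groups. It limits ZEB1 most in the CTR and at 12 h, where no library reached the filter's cutoff.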
